A study of Rattus norvegicus with 6 samples.

Results

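The genes described here make and reshape fatty acids: Acly, Acaca and Fasn, which build palmitate, Scd, Scd2, Elovl5, Elovl6, Fads1 and Fads2, which desaturate or lengthen fatty acids, and Srebf1, the transcription factor gene that drives their expression. The members were the non-control probes of the array whose RefSeq accession maps to one of these 10 rat symbols. This found 10 probes of 9 genes, among 30367 probes and 15168 named genes. No probe was matched to Srebf1, so it was not analysed here. Of the 9 genes, 8 passed the filter on dim probes and were among the 18206 features tested. Acaca did not pass.

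RNA came from the kidneys of rats aged 21 weeks. One group of 3 had been given Bailing Capsule, a preparation of fermented Cordyceps, and the other group of 3 was diabetic. The labels used here name no strain, sex, dose or way of inducing diabetes, and do not say whether the rats given Bailing Capsule were also diabetic. No untreated healthy group was analysed here. Each sample was hybridised to an Agilent one-colour array. The labels number the replicates without saying that they are separate animals, so the p-values speak only to the spread among these 6 samples, which may be technical.

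In mammals, citrate exported from mitochondria is split to acetyl-CoA by ATP citrate lyase, carboxylated to malonyl-CoA and joined by fatty acid synthase into palmitate. Elongases then add carbon units, and stearoyl-CoA desaturases put in the first double bond, giving oleate and palmitoleate. A separate pair of desaturases with their own elongases turns dietary linoleate into arachidonate. Most of these genes are induced by SREBP-1c, the product of Srebf1, in response to insulin and oxysterols. In kidney, such lipid synthesis is best known from work on diabetic and fatty kidneys.

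Slide and group were partly confounded, since all 3 Bailing Capsule samples shared slide 1 with the first diabetic replicate, while the other 2 diabetic replicates were on slide 2. The share of probes well above background was 65.0% to 73.7%, no spot was saturated, and pairs of arrays correlated at 0.966 to 0.992 across features. All 9 kidney marker genes with a probe, such as the tubule genes Lrp2 and Umod and the podocyte gene Nphs1, were well above background on all 6 arrays. The number of arrays limits the precision of every value below. Levels are given as log2 of the processed signal minus the 75th percentile of the same array, and differences as Bailing Capsule minus diabetic on that log2 scale. In kidney tissue, a lower level can mean fewer cells of a type or less RNA per cell, and these cannot be told apart.

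Scd2 was the only member called, with a higher level in Bailing Capsule than in diabetic kidneys. It encodes a stearoyl-CoA desaturase, which in mice is the isoform of brain and many other tissues outside liver. Its level was 1.70, 2.56 and 2.08 in the Bailing Capsule kidneys, against -0.24, 0.35 and -0.05 in the diabetic kidneys. The groups did not overlap, and the lowest Bailing Capsule kidney lay above the highest diabetic one. Scd2 averaged 2.11 ± 0.43 in Bailing Capsule kidneys and 0.02 ± 0.30 in diabetic kidneys (SD, n = 3 each), a 4.27-fold higher level (log2 2.09, SE 0.30, 95% interval 1.43 to 2.76, adjusted p = 0.0187 in limma). The plot of member signals by array shows the 2 groups of points apart for this gene.

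Of the 8 tested members 1 was called higher and 0 lower, at an adjusted p under 0.05. The same test called 0.297% of all features, 23 higher and 31 lower. In the deposited processed values the calls were 25 higher and 20 lower, so 55.6% of calls were higher there, against 42.6% in the values used here.

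**Figure D1:**
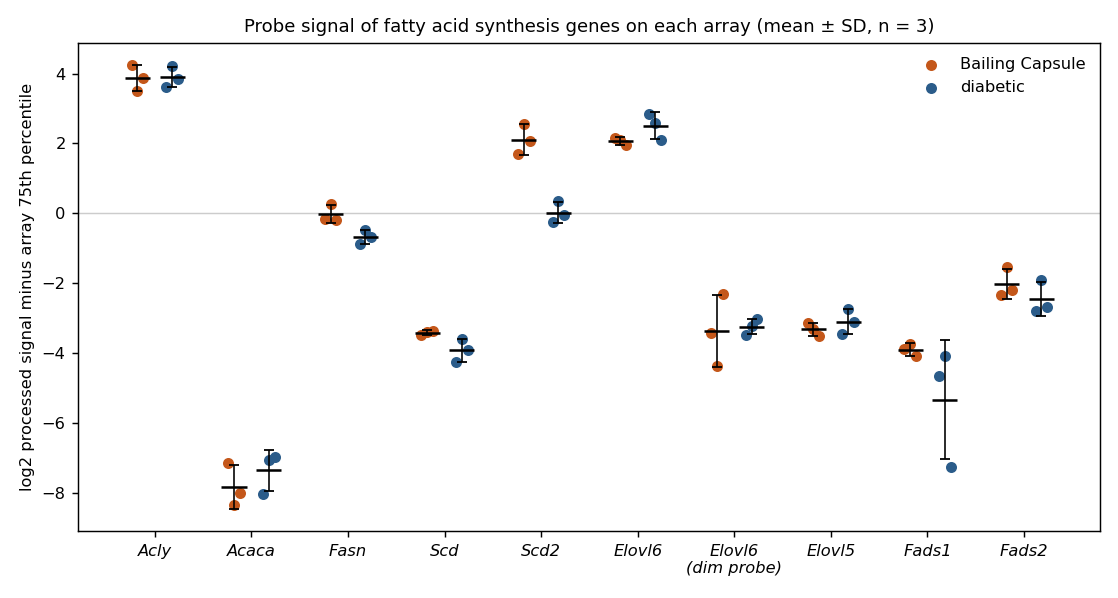
Level of each member probe (vertical axis, log2 processed signal minus the array's 75th percentile) on the 3 Bailing Capsule arrays (left, orange) and the 3 diabetic arrays (right, blue), with group means and SD. Scd2, Fasn and Scd have groups that do not overlap, Acaca lies at the bottom of the scale, and 1 diabetic array of Fads1 falls to -7.26.

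The Scd2 probe was printed 10 times on each array, so its measurement error within an array can be seen. The unscaled processed signals of all 10 spots ran from 677 to 771 in Bailing Capsule replicate 1, 2047 to 2363 in replicate 2 and 951 to 1049 in replicate 3. They ran from 217 to 247 in diabetic replicate 1, 263 to 304 in replicate 2 and 350.0 to 416 in replicate 3. The coefficient of variation among spots was 3.39% to 5.56%, after 2 spots of Bailing Capsule replicate 2 were left out as outliers. On the scaled log2 values the range within the Bailing Capsule group was 0.87, more than these spot errors.

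**Figure D2:**
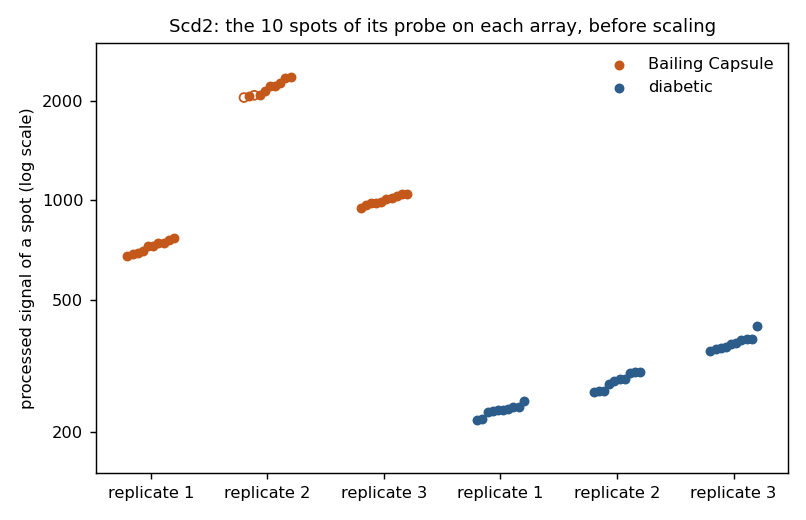
Processed signal (log axis, not scaled between arrays) of the 10 spots of the Scd2 probe on each array, sorted within the array; open circles are the 2 outlier spots left out. The Bailing Capsule spots start at 677 and the diabetic spots end at 416.

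The size of the Scd2 difference was steadier than its call. Over 19 alternative settings the log2 difference ran from 1.87 to 2.35. The call did not hold (adjusted p in limma) in 9 of them. These were normexp background correction with 1.99 (0.134), no filter (0.134), slide as a block with 2.35 (0.0599), the same difference within slide 1 (0.294) and replicate number as a block (0.118). The other 4 left out 1 array: Bailing Capsule replicate 2 with 1.87 (0.0728) or replicate 3 with 2.11 (0.0708), and diabetic replicate 2 with 2.26 (0.0821) or replicate 3 with 2.06 (0.122). The values within slide 1 and with slide as a block both rest on 1 diabetic array, since slide 2 held no Bailing Capsule sample. The same holds wherever slide as a block is used below.

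Scd encodes the other stearoyl-CoA desaturase measured, the isoform known from liver and fat in rodents. Its level was -3.49, -3.40 and -3.35 in kidneys of Bailing Capsule rats, against -4.24, -3.58 and -3.90 in diabetic kidneys. The groups did not overlap, but their gap was small beside the range of 0.66 among the diabetic kidneys. The difference of 0.50 (SE 0.26, 95% interval -0.08 to 1.07) did not pass (adjusted p = 0.746 in limma). The probe was dim, with unscaled signals of 19.9 to 35.5 in Bailing Capsule kidneys and 14.5 to 25.8 in diabetic kidneys, and with normexp the difference was 0.17. The 2 desaturase genes are close relatives, and how far their probes cross-hybridise was not tested.

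The promoters of these 2 genes are shown because Scd2 was the called member and Scd is its relative on the same chromosome. Sequences are from RefSeq on build GRCr8, each running from 250 bases before the gene start to 50 bases after it. The window of Scd2 lies at chr1:253118127-253118426 on the plus strand, and that of Scd at chr1:253231682-253231981 on the minus strand. Capitals mark matches to the letters CCAAT, the NF-Y box, on either strand.
Scd2: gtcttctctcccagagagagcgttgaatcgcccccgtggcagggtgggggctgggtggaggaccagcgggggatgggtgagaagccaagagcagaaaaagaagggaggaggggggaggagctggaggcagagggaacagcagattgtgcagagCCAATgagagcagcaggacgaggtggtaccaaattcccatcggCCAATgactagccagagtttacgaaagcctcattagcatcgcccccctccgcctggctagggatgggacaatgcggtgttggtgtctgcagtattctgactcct
Scd: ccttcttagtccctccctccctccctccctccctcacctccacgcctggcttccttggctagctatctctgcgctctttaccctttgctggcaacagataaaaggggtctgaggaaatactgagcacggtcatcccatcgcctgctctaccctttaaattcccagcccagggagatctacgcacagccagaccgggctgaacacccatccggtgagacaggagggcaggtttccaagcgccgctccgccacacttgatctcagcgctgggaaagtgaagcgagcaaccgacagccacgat

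The Scd2 window held 2 CCAAT boxes, 97 and 54 bases upstream of the gene start, and the Scd window held none. A CCAAT match was present in 37.5% of 33469 windows of 300 bases. Neither window held CACGTG (an E-box, in 6.42% of all windows), GGGCGG (an Sp1 site, 33.1%) or TCACCCCAC (core of the classical sterol regulatory element, 0.484%), searched on both strands. The 2 CCAAT matches do not overlap. Windows were given for 7 of the 10 genes, in 8 windows because Srebf1 had 2. The sterol element letters were in none of these 8 windows, and CACGTG was in that of Elovl5.

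Acly, ATP citrate lyase, supplies acetyl-CoA and was the brightest probe of the members. Its level was 4.25, 3.51 and 3.87 in kidneys of Bailing Capsule rats, against 3.63, 4.20 and 3.86 in diabetic kidneys. The groups overlapped over nearly their whole range. The difference was -0.02 (SE 0.29, 95% interval -0.65 to 0.62, adjusted p = 0.9996 in limma). A decrease of up to about 0.65 or an increase of up to about 0.62 thus lies within the interval. Its sign changed with the scaling, at 0.09 with quantile normalization and 0.01 with median scaling.

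The only probe of Acaca, which encodes the acetyl-CoA carboxylase that makes malonyl-CoA, was not well above background on any array. Its unscaled signals were 0.92 to 1.60 in Bailing Capsule kidneys and 1.06 to 3.10 in diabetic kidneys. It was not tested, and no fold is given.

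Fasn encodes fatty acid synthase, which assembles palmitate. Its level was -0.16, 0.28 and -0.18 in kidneys of Bailing Capsule rats, against -0.88, -0.46 and -0.68 in diabetic kidneys. The groups did not overlap. Fasn averaged -0.02 ± 0.26 in Bailing Capsule kidneys and -0.67 ± 0.21 in diabetic kidneys (SD, n = 3 each), a difference of 0.65 (SE 0.26, 95% interval 0.08 to 1.23). The unadjusted p was 0.0298 and the call over all features was not made (adjusted p = 0.550 in limma).

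The deposited table of processed values gave the opposite direction for Fasn, with -0.73 (adjusted p = 0.283 in limma). Within each array that table is a rising function of the scanner signal, so the value that a probe's own signal gives there can be read from its neighbours in signal. The Fasn values read in this way were 8.12, 8.61 and 8.14 for the Bailing Capsule arrays and 7.47, 7.61 and 7.60 for the diabetic arrays. The table lists 7.47, 7.61 and 7.60 under Bailing Capsule and 8.12, 8.61 and 8.14 under diabetic. With the groups' columns exchanged, replicate by replicate, the table matched the scanner files to within 0.000667, and as listed it differed by up to 0.996.

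Such a mismatch was rare. Of 17767 probes well above background on all 6 arrays, 99.71% matched within 0.01 and 3 differed by more than 0.5 on any array. Of these 3 probes, 2 matched within 0.01 once the groups were exchanged, and the Fasn probe was among them. The other tested members matched as listed, including Scd2 (largest difference 0.000936). In the scanner files the raw median signal of the Fasn spot was 216, 471 and 226 on Bailing Capsule arrays and 176.5, 187.5 and 266 on diabetic arrays, and its ratio of processed to background-subtracted signal was not extreme on any array (log2 -0.09 to 0.04). How the difference between the 2 sources arose was not tested. The direction for Fasn given here is that of the scanner files, and it is reversed in the deposited table.

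**Figure D3:**
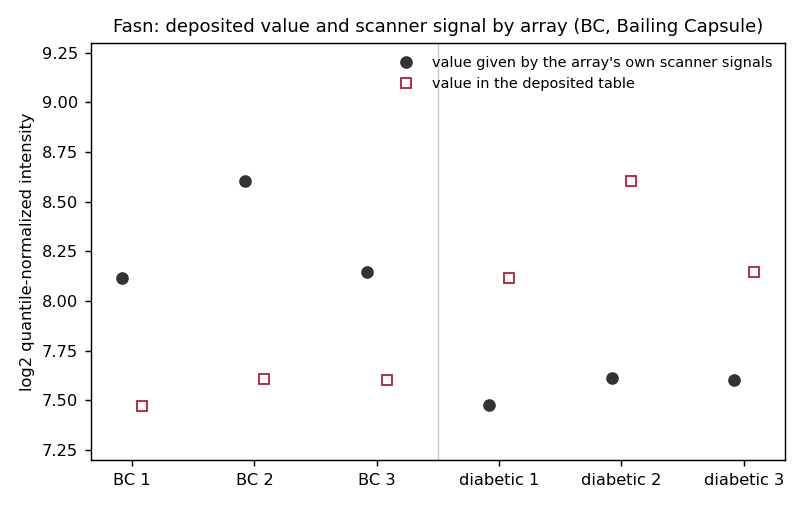
Fasn on each array (vertical axis, log2 quantile-normalized intensity): circles, the value that the array's own scanner signals give; squares, the value listed in the deposited table. The circles of the Bailing Capsule arrays (8.12, 8.61 and 8.14) recur as the squares of the diabetic arrays with the same replicate number, and the reverse.

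Elovl6 lengthens palmitate to stearate, the preferred substrate of the stearoyl-CoA desaturases. The level of its brighter probe was 2.16, 2.09 and 1.95 in kidneys of Bailing Capsule rats, against 2.85, 2.58 and 2.09 in diabetic kidneys. Diabetic replicate 3 lay among the Bailing Capsule kidneys, so the groups overlapped. The difference was -0.44 (SE 0.27, 95% interval -1.05 to 0.16, adjusted p = 0.827 in limma). A second, dim probe had -3.42, -4.37 and -2.32 in Bailing Capsule kidneys and -3.46, -3.23 and -3.02 in diabetic kidneys, a difference of -0.13 with a range of 2.05 among the Bailing Capsule kidneys.

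Elovl5 lengthens polyunsaturated fatty acids. Its level was -3.14, -3.31 and -3.50 in kidneys of Bailing Capsule rats, against -3.45, -2.72 and -3.10 in diabetic kidneys, with overlapping groups. The difference was -0.22 (SE 0.27, 95% interval -0.83 to 0.38, adjusted p = 0.967 in limma), and it was 0.14 with slide as a block.

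Fads1 and Fads2 encode the delta-5 and delta-6 desaturases of the path from linoleate to arachidonate. Fads1 had -3.88, -3.72 and -4.09 in kidneys of Bailing Capsule rats, against -4.65, -4.07 and -7.26 in diabetic kidneys. The lowest value, of diabetic replicate 3, came from a spot that was not well above background, and the highest diabetic kidney lay level with the lowest Bailing Capsule kidney. The probe thus passed the filter through the Bailing Capsule group, with 2 of 3 diabetic arrays measured. Without diabetic replicate 3 the difference was 0.47. With that array it was 1.43 (adjusted p = 0.674 in limma), a value that rests on a signal at background, and with normexp it was 0.21.

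Fads2 had -2.33, -1.53 and -2.19 in kidneys of Bailing Capsule rats, against -2.78, -1.90 and -2.68 in diabetic kidneys. Bailing Capsule replicate 2 was the highest, and the groups overlapped. The difference was 0.44 (SE 0.33, 95% interval -0.29 to 1.17, adjusted p = 0.902 in limma), and 0.20 without that array.

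**Figure D4:**
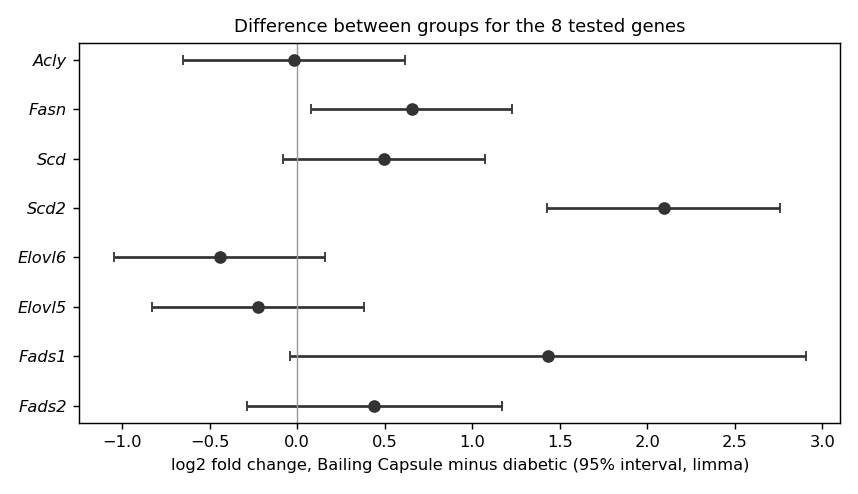
Difference between groups for the 8 tested members (horizontal axis, log2 fold change, Bailing Capsule minus diabetic), with 95% intervals from limma, not adjusted for the number of features. The intervals of Scd2 (1.43 to 2.76) and Fasn (0.08 to 1.23) lie above 0, and the other 6 include 0. The Fads1 interval includes the diabetic array that was not well above background.

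Groups did not overlap for 3 of the 8 tested members, Scd2, Fasn and Scd, all higher in Bailing Capsule kidneys. Over all features 4.75% were higher and 6.98% lower without overlap. Of the members 5 had positive and 3 negative differences, with a median of 0.47. The tally and the members' medians include Fads1, which passed through the group where it was higher, so they describe the tested genes only. The median was 0.44 when all 6 arrays had to be well above background, which left Fads1 out. The median over all features was -0.09, with 6949 positive and 11257 negative. The median level of the members, relative to the diabetic mean of each gene, was 0.39, 0.72 and 0.38 in kidneys of Bailing Capsule rats, against -0.26, 0.33 and -0.06 in diabetic kidneys.

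The members were not uniform across arrays. Over the 6 arrays Fasn and Scd2 had a Pearson correlation of 0.957, Fasn and Scd 0.877, Scd and Scd2 0.866 and Fads2 and Fasn 0.849. After the group means were removed these became 0.911, 0.637, 0.641 and 0.939. Elovl6 ran the other way to Scd and Scd2, with -0.723 and -0.693, and -0.40 and -0.142 after the group means were removed. It did not do so to every member. With Fads1, which had 1 diabetic array not well above background, it had 0.084, and 0.841 after the group means were removed. The 28 pairs had a median of 0.14 and ran from -0.723 to 0.957. All pairs share the same 6 arrays and their scaling, so these values are descriptions.

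Among 10401 other named features with values on all arrays, the patterns most like that of Fasn were those of Clic3 (Pearson 0.9992, n = 6 arrays), Kank3 (0.9892) and Ackr3 (0.9865). Those most like Scd were Ddx49 (0.9917), Cyp2c11 (0.9911) and Lysmd2 (0.991). They are the highest of 10401 correlations over only 6 arrays, with the group difference included, and shared regulation was not tested. Clic3 is a chloride intracellular channel gene and Cyp2c11 a cytochrome P450 gene of male rat liver, with differences of 0.78 and 1.93.

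Slide cannot be told apart here from differences among the diabetic samples. The 1 diabetic array of slide 1 was the lowest diabetic kidney for 6 of the 8 tested members. Relative to the diabetic mean of each feature, the median of all features was 0.21 and -0.04 on diabetic replicates 2 and 3. It was also lowest, at -0.15, on the diabetic array of slide 1. Set against this array alone, Bailing Capsule kidneys differed by 2.35 for Scd2, 0.86 for Fasn, 0.83 for Scd and -0.79 for Elovl6. Set against the mean of the 2 diabetic arrays of slide 2, the differences were 1.97 for Scd2, 0.55 for Fasn, 0.33 for Scd and -0.27 for Elovl6. Scd2, Fasn and Scd were positive in both, which follows from groups that do not overlap. Elovl6 was negative in both, which follows from its Bailing Capsule mean of 2.07 lying below each diabetic array. Fads1 had 0.76 against slide 1 and 1.77 against slide 2, and Fads2 had 0.77 and 0.28. The sign turned for Acly, with 0.25 against slide 1 and -0.15 against slide 2, and for Elovl5, with 0.14 and -0.40. With slide as a block the differences were again those against the 1 diabetic array of slide 1. The members' median, which includes Fads1, was then 0.76, and that of all features 0.09.

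Other genes of the pathway showed no call in either direction. The same test called 0.297% of all features, so lists this short would mostly hold no call. Of 12 genes of substrate and NADPH supply 10 were tested, with 5 positive and 5 negative differences and a median of -0.10. Mlycd, malonyl-CoA decarboxylase, which removes the substrate of fatty acid synthase, averaged 3.10 ± 0.21 in Bailing Capsule kidneys and 3.77 ± 0.26 in diabetic kidneys (SD, n = 3 each), a difference of -0.66 (SE 0.26, adjusted p = 0.535 in limma). The citrate synthase gene Cs had -0.31, the aconitase gene Aco1 -0.40 and the acetyl-CoA synthetase gene Acss1 -0.28. Of 8 accessory and mitochondrial synthesis genes 5 were tested, with a median of -0.15. Thrsp, a lipogenic cofactor, passed the filter through the Bailing Capsule group, with 1 of 3 diabetic arrays well above background, so its 0.94 is set against values mostly at background, and it was -0.13 with slide as a block. With that block the signs of Acss1 (0.17) and Oxsm (0.05) also turned, and Aco1 had -0.61. Mid1ip1, which polymerises acetyl-CoA carboxylase, had -0.36, Cbr4 -0.25 and Oxsm -0.15.

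Among 17 other elongation and desaturation enzymes 13 were tested, 6 positive and 7 negative, with a median of -0.00040. Cyb5a, the cytochrome that passes electrons to the desaturases, had -0.67 (SE 0.26, adjusted p = 0.527 in limma). The elongase genes Elovl1, Elovl2 and Elovl3 had -0.41, -0.47 and 0.76. With slide as a block, so against 1 diabetic array, Elovl3 had 2.18 and Elovl1 -0.26.

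Of 25 regulators of synthesis 22 were tested, 16 positive and 6 negative, with a median of 0.18. The AMP-activated kinase subunit genes Prkaa2 and Prkag1 had 0.51 and 0.44, Akt2, of insulin signalling, 0.33 and the coactivator gene Ppargc1b 0.29. With slide as a block Akt2 had 0.96 and Ppargc1b 0.13. Of 10 further targets of SREBP-1 and LXR 6 were tested, with a median of -0.02. Mylip, which encodes a ubiquitin ligase for the LDL receptor, had 0.62 (SE 0.25, adjusted p = 0.546 in limma), the phospholipid acyltransferase gene Lpcat3 -0.54, the lipase gene Pnpla2 -0.17 and the cholesterol exporter gene Abca1 -0.08. With slide as a block Mylip had 0.36, Pnpla2 -0.35 and Abca1 -0.23.

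Of 11 genes of fatty acid activation, uptake and binding 10 were tested, with a median of -0.20. Acsl1, a long-chain acyl-CoA synthetase, averaged 3.39 ± 0.50 in Bailing Capsule kidneys and 4.50 ± 0.27 in diabetic kidneys (SD, n = 3 each), a difference of -1.11 (adjusted p = 0.272 in limma). Cd36, a fatty acid uptake receptor, averaged 0.35 ± 0.47 in Bailing Capsule kidneys and 1.45 ± 0.02 in diabetic kidneys (SD, n = 3 each), a difference of -1.10 (adjusted p = 0.229 in limma). The binding protein genes Fabp4 and Fabp5 had -0.87 and 0.59. Sterol synthesis, which shares SREBP control, had 12 of 13 genes tested, 2 positive and 10 negative, with a median of -0.28. Dhcr7, of the last step to cholesterol, averaged -2.03 ± 0.21 in Bailing Capsule kidneys and -0.79 ± 0.41 in diabetic kidneys (SD, n = 3 each), a difference of -1.24 (adjusted p = 0.156 in limma), and -0.78 with slide as a block. The other sterol genes named by lowest p were Sqle with -0.88, Hmgcs1 -0.33 and Sc5d -0.28, with Sc5d at -0.15 under that block. In the strip of list values the members' median, with Fads1 included, lies to the right of that of all features. That of sterol synthesis lies to the left.

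**Figure D5:**
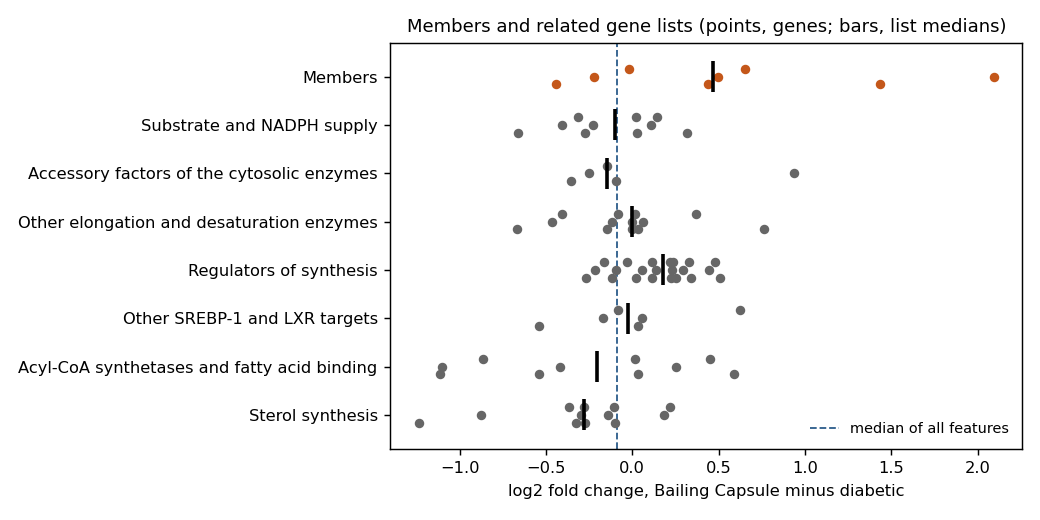
Differences (horizontal axis, log2 fold change, Bailing Capsule minus diabetic) of the 8 tested members (orange) and of tested genes of 7 related lists (grey), with list medians as bars and the median of all features (-0.09) dashed. Scd2 at 2.09 is the rightmost point and Dhcr7 at -1.24 the leftmost.

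Fat and liver express many of the members strongly, so markers of both were set beside these results. Scd2, as given above, is in mice the isoform of brain and many other tissues outside liver. The summed linear signal of 10 adipocyte markers, in units of the array's 75th percentile, was 15.0, 4.61 and 10.3 with Bailing Capsule and 20.5, 19.7 and 13.5 in the diabetic group. Adipoq and Cidea were the brightest of these markers on each array, so both weigh most in the sum. Of 8 tested adipocyte markers 7 were negative, with a median of -0.79, while Lep and Ucp1 were not well above background on any array. The sum of 11 liver markers was 2.05, 2.57 and 2.10 in kidneys of Bailing Capsule rats, against 3.98, 5.52 and 5.32 in diabetic kidneys. Apoc3, Fga and Fgb were the brightest liver markers on each array, so these genes weigh most in that sum. Alb was dim, with a mean level of -4.06 in Bailing Capsule and -2.69 in diabetic kidneys. All 7 tested liver markers were negative, and Apoa1, Ahsg and Cps1 were not well above background on any array. Adrenal markers summed to 6.97, 4.79 and 4.74 in Bailing Capsule kidneys and 4.83, 7.02 and 5.15 in diabetic kidneys, with Star and Mc2r not well above background on any array. The sum of the 9 kidney markers also varied between arrays. It was 585.2, 311.1 and 393.5 in Bailing Capsule kidneys and 389.4, 649.9 and 472.7 in diabetic kidneys. The part of other tissue in the members' levels was not tested.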

How the data were processed

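Rat kidney RNA of 6 samples was measured on Agilent one-colour arrays. Per the file headers, the authors scanned them on a G2505C scanner and used Feature Extraction 11.0.1.1, which gave a background-subtracted, detrended intensity per spot, not scaled between arrays. The deposited table holds log2 values with column medians of 5.05 to 5.06. As read from the values it is quantile normalized, and its columns correlate with the scanner values of the matching arrays at 0.983 to 0.994. Its making is not given in the sources used here.

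Each array held 42877 spots other than controls. Outlier spots (597 to 1091 per array) were left out, spots of a probe averaged as log2, and the 75th percentile subtracted. A probe counted as well above background where at least 50% of its spots were, and passed if this was so for every array of either group. The brightest kept probe stood for a gene. Accessions named 18005 of 30367 probes through the RefSeq gene table of GRCr8. The array design names an older build, so the only coordinates printed are those of RefSeq promoter windows on GRCr8.

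limma 3.58.1 in R 4.3.3 was fitted over all 18206 features, with Benjamini-Hochberg adjustment. In simulated data with 200 changed features of 17665, the test called 0% of those at a log2 change of 1. At a log2 change of 2 it called 77.5%, with 7 false calls. A missing call by itself therefore does not exclude a log2 change of 1. Alternatives were quantile and median scaling, normexp (offset 50, median spot signal) with quantile scaling, the deposited table, other filters, probe summaries and variance models, slide and replicate blocks, and leaving out each array. The members and lists were chosen with earlier results of these data known. Related genes were named by lowest p, up to 4 per list. The comparison of the deposited table with scanner signals, and the names and values it brought, were added after the data were seen, and 1 result of it is not reported here. Slides were told apart by the headers' scan records. Same-numbered samples correlated at -0.177, -0.139 and 0.0243 after group means were removed.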

Additional observations from a re-analysis of the deposited data

How the results depend on the processing

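The number of called features was 54, and 12 with normexp, 6 with no filter, 35 when all 6 arrays had to be above background, 9 within slide 1, 6 with the replicate block, and 17 to 187 when 1 array was left out. It was largest without diabetic replicate 1 (187) and Bailing Capsule replicate 1 (146), and smallest without diabetic replicates 2 and 3 (17 each), against 26 and 32 without Bailing Capsule replicates 2 and 3. The number of called members was 1, and 0 with normexp, with no filter, with slide as a block, within slide 1 and with the replicate block, and 0 to 1 when 1 array was left out. The members' median of 0.47 was 0.19 with normexp and 0.76 with slide as a block and within slide 1. It ran from 0.30 to 0.69 when 1 array was left out. Acly changed sign with quantile normalization (0.092), median scaling (0.011), the deposited table (0.15), slide as a block and within slide 1 (0.25), and ran from -0.20 to 0.16 when 1 array was left out (0.16 without Bailing Capsule replicate 2, 0.14 without diabetic replicate 2). Elovl5 changed sign with slide as a block and within slide 1 (0.14), and Fasn in the deposited table (-0.73). The signs of Scd, Scd2, Elovl6, Fads1 and Fads2 held under each alternative run on them. For Scd and Scd2, whose groups did not overlap, the sign could not turn with slide as a block or when 1 array was left out. Fewer features tested or fewer arrays enter some of these by construction. Otherwise the cause was not tested, except that the Fasn columns of the deposited table match the other group's scanner values. No sample correlated best with its own replicate number. Scd, Elovl5 and Fads1 were read from dim probes, and for Fads1 1 diabetic array was not well above background.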

Other observations

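Besides Fasn, the deposited table departed from the scanner files by more than 0.5 for a probe of Ppara, the nuclear receptor gene of fatty acid oxidation, which was named after its values were seen. For Ppara the table gave a difference of 0.51 (Bailing Capsule minus diabetic) and the scanner signals -0.31. The values listed under the diabetic arrays, 7.89, 7.63 and 7.31, were within 0.01 of those that the scanner signals gave for Bailing Capsule replicates 1, 2 and 3. Those listed under Bailing Capsule, 8.16, 8.09 and 8.11, were not the diabetic values in replicate order (8.11, 8.06 and 7.59 from the scanner signals), though 8.11 appears in both. Beyond the 3 probes past 0.5, the largest difference among probes well above background on 6 arrays was 0.495. How these values came to differ was not tested.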
